A study of Homo sapiens with 11 samples.

Results

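JURKAT is an established cell line of T-cell acute lymphoblastic leukemia (T-ALL) that carries the label NKL positive, but it stood outside the 5 against 5 comparison of NKL-positive and NKL-negative lines made in the study. Its single array is 1 of 11 arrays, each from a different T-ALL line, and it was set against the other 10 lines across 19775 genes. Genes measured at least 2 log2 units above or below every other line formed the profile of JURKAT. The profile held 29 of the 19775 genes, 20 higher and 9 lower. The other NKL-positive lines were ALL-SIL, CCRF-CEM, HPB-ALL, LOUCY and PEER, and the NKL-negative lines were SUP-T1, MOLT-16, MOLT-14, CML-T1 and MOLT-4. The labels name no treatment, and each line stands for the leukemia of 1 patient, kept in culture. Because JURKAT has 1 array, no test was possible and no error can be given for its values. The range of the other lines is given instead.

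NKL homeobox genes form a subclass of homeobox genes, whose products bind DNA and direct development. A few of them are active in hematopoietic stem and progenitor cells and are shut down as T-cells mature, and in T-ALL some are switched on again or in the wrong tissue. JURKAT is best known as the cell line in which much of T-cell receptor signalling was worked out. T-ALL cells otherwise carry other activated regulators, such as the basic helix-loop-helix factor TAL1, which in normal hematopoiesis serves stem cells and the erythroid lineage.

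All values are log2 expression values of the RMA method, in which a step of 1 means a 2-fold change. Array medians lay at 4.68 in JURKAT and between 4.63 and 4.76 in the other lines. Lower quartiles lay at 3.50 in JURKAT and between 3.45 and 3.60 in the others, and values near them have no order. Over all genes, the median of the difference between JURKAT and the median of the other lines was 0.03 (SD 0.769 over genes). JURKAT correlated with the other lines at Pearson's r between 0.899 and 0.930 across genes that share the arrays, and MOLT-4 stood at the upper end. Poly-A control transcripts, which are added before labelling, averaged 9.09 in JURKAT, 6.09 to 9.59 in 7 other lines and 3.02 to 3.10 in MOLT-16, CML-T1 and HPB-ALL. Thus, these 3 arrays stood apart from the others.

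The T-cell identity of JURKAT was examined first. CD3D, a chain of the T-cell receptor complex, was measured at 12.82 in JURKAT and at 12.64 to 13.44 in the other 10 lines. LCK, the kinase that starts receptor signalling, was measured at 12.22 in JURKAT and at 10.73 to 12.03 in the others. Both lay far above the array median in every line. Many other T-cell genes were lower in JURKAT. Below the median of the other lines lay 14 of 17 genes of the receptor complex and its coreceptors and 14 of 18 mature T-cell markers. The median differences of these lists were −0.755 and −0.778, against 0.03 over all genes. Among the other lineages, the 16 measured myeloid markers did not pass 5.34 (CEBPA) in JURKAT, and the 17 NK-cell and cytotoxic markers did not pass 7.02 (EOMES). CD79A, a B-cell receptor chain, was measured at 7.04 in JURKAT and at 5.77 to 10.12 in the other lines. Of the erythroid and megakaryocyte markers, the transferrin receptor TFRC, which all dividing cells use, stood at 12.03 and TAL1, described further on, at 10.74.

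The 2 marker genes of JURKAT were HMX2 and NKX2-2, homeobox genes of inner ear and of neural and pancreatic development. HMX2 was measured at 6.99 in JURKAT, against 3.26 in ALL-SIL, 4.17 in CCRF-CEM, 3.31 in HPB-ALL, 3.11 in LOUCY and 5.56 in PEER. In the NKL-negative lines HMX2 lay between 3.12 in SUP-T1 and 4.43 in MOLT-4. JURKAT was the highest line, 1.43 above PEER and 3.48 above the median of the others. NKX2-2 was measured at 5.99 in JURKAT, against 2.96 to 3.20 in the other NKL-positive lines and 2.68 to 4.54 in the NKL-negative lines. JURKAT was again the highest line, and SUP-T1 came next. Neither gene reached a gap of 2 log2 units, so that neither belonged to the profile. The upstream sequences of both are given here with those of 3 profile genes, namely GAS2, with the second largest gap among the higher genes, and KLHL9 and ZNF93, with the largest gaps among the lower ones. They are the 250 bases before the gene start on the strand of the gene, 5′ to 3′, taken from RefSeq (GRCh38.p14), with CG dinucleotides, the sites of DNA methylation, in capitals. HMX2 covers chr10:123147886-123148135 on the plus strand, NKX2-2 chr20:21522690-21522939 on the minus strand, GAS2 chr11:22666361-22666610 on the plus strand, KLHL9 chr9:21335405-21335654 on the minus strand and ZNF93 chr19:19900696-19900945 on the plus strand.
HMX2: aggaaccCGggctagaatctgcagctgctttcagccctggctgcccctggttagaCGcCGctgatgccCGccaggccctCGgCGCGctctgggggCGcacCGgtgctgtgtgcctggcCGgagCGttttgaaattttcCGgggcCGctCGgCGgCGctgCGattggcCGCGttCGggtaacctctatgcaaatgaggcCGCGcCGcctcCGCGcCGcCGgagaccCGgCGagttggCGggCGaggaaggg
NKX2-2: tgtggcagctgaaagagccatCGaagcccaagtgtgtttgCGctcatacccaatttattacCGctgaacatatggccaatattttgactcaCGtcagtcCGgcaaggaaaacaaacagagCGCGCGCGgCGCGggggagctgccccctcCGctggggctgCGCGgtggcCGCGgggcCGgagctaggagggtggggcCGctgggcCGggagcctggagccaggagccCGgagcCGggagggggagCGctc
GAS2: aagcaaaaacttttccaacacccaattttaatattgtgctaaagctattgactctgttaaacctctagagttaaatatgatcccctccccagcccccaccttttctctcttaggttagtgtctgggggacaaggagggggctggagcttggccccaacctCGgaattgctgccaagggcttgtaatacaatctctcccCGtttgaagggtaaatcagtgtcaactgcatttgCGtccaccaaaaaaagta
KLHL9: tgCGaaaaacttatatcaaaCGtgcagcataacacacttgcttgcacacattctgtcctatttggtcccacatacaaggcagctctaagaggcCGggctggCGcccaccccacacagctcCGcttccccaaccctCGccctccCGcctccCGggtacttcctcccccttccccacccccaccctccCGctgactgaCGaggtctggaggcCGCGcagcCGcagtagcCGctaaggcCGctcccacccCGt
ZNF93: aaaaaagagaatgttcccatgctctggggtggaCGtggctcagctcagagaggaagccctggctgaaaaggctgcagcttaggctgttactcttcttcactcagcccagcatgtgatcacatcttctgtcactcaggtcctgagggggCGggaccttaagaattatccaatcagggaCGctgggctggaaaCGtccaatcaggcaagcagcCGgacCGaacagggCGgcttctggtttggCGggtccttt
The motif CG, which reads the same on both strands, occurs at least once in 97.1% of the 15384 upstream regions of this length that belong to measured genes, with a median of 18 and quartiles of 7 and 26. HMX2 carries 31 CG dinucleotides, NKX2-2 22, GAS2 3, KLHL9 16 and ZNF93 8. Among the 22 profile genes with a RefSeq promoter, the 14 higher genes carry 0 to 39 with a median of 25.5, and the 8 lower genes carry 8 to 36 with a median of 16. These counts describe the sequence and give no methylation level.

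**Figure D1:**
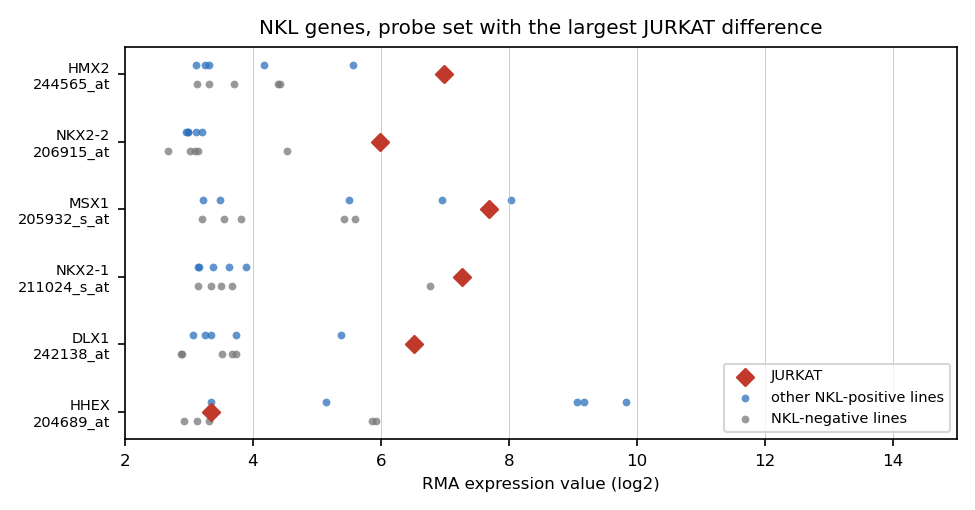
RMA log2 values (x-axis) of 6 NKL homeobox genes with the probe set shown (y-axis), JURKAT as red diamonds, the other NKL-positive lines in blue and the NKL-negative lines in grey. The probe set shown is the one with the largest difference of JURKAT from the median of the others. On these, JURKAT is the rightmost line for HMX2, NKX2-2, NKX2-1 and DLX1, while LOUCY exceeds it for MSX1 and HHEX lies at 3.34 in JURKAT. By the probe set of highest mean, NKX2-1 gives 6.25 in JURKAT against at most 5.73 elsewhere, and DLX1 gives 4.87 against at most 4.86.

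Of 36 measured NKL homeobox genes with 50 probe sets, 3 lay at least 2 above the median of the other lines in JURKAT and 1 at least 2 below. Over all 19775 genes, 394 genes (1.99%) lay at least 2 above and 216 genes (1.09%) at least 2 below. The third gene above was MSX1, a homeobox gene regulated by BMP signalling, with 7.69 in JURKAT, against 3.21 to 8.04 and a median of 4.62 in the other lines. LOUCY exceeded JURKAT, and the second probe set of MSX1 differed from the median by only 0.36. The gene below was HHEX, a homeobox gene of early progenitors, with 3.34 in JURKAT, against 10.61 in CCRF-CEM, 10.89 in LOUCY and 9.92 in PEER. Both probe sets of HHEX gave 3.34, and ALL-SIL, CML-T1, MOLT-4 and SUP-T1 were equally close to the array background. With all probe sets considered, 2 more genes lay at least 2 above the median. NKX2-1, a lung and thyroid regulator, was measured at 7.27 in JURKAT by one of its probe sets, against 3.14 to 6.77 in the others, where only MOLT-14 came near. DLX1, a forebrain homeobox gene, was measured at 6.51 by one probe set, against 2.87 to 5.38 in the others, but its probe set of highest mean gave 4.87 in JURKAT and 3.36 to 4.86 in the others. Of the 36 genes, 21 lay below the median of the JURKAT array, a value with as many probe sets below as above it. The share over all genes was not counted, so that this count does not set the NKL genes apart.

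The profile of JURKAT held 20 higher genes (0.101% of all genes) and 9 lower genes (0.0455%). These shares are set by the rule and carry no test. Counted in the same way, the other 10 lines had between 2 (ALL-SIL) and 93 (CML-T1) higher genes and between 4 (CCRF-CEM) and 60 (ALL-SIL) lower genes. Of the 10 lines, 3 had fewer higher genes than JURKAT and 2 had fewer lower genes. It was the highest of the 11 lines in 1558 genes (7.88%) and the lowest in 1238 genes (6.26%). Without the 3 arrays with low poly-A controls, those of MOLT-16, CML-T1 and HPB-ALL, the counts were 45 higher and 16 lower genes, with fewer lines to pass. Without SUP-T1 alone, 27 higher and 14 lower genes were counted.

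**Figure D2:**
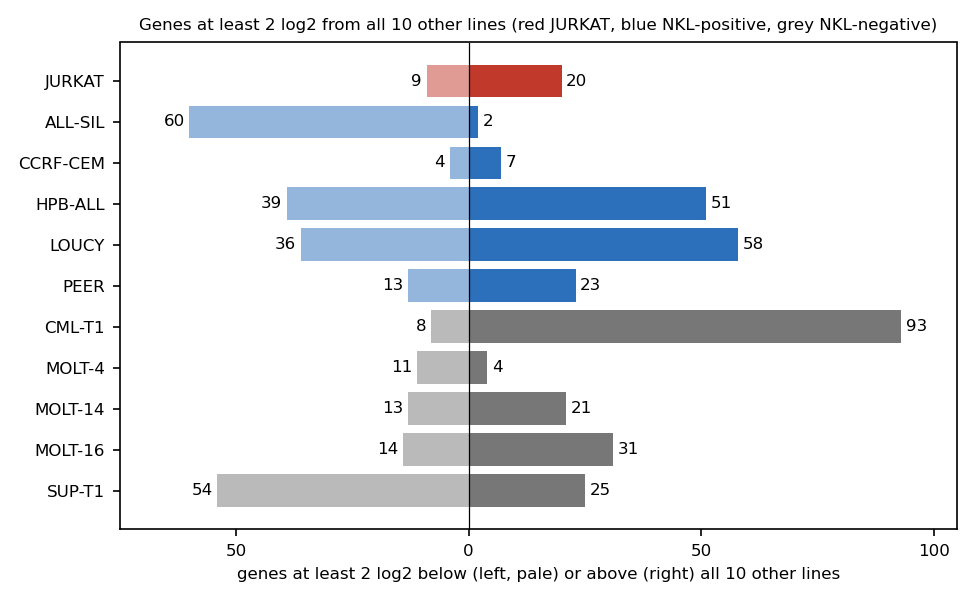
Number of genes (x-axis) at least 2 log2 units below (pale, left) or above (dark, right) all 10 other lines, for each of the 11 T-ALL lines (y-axis), with JURKAT in red, NKL-positive lines in blue and NKL-negative lines in grey. JURKAT has 20 higher and 9 lower genes, ALL-SIL 2 and 60 and CML-T1 93 and 8.

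In 11 of the 20 higher genes, all 10 other lines lay below the medians of their arrays. In 1 of them, FGF13, all 10 also lay below the lower quartiles. JURKAT lay above its own median in all 20, which the rule nearly requires. TSPYL5, a nucleosome assembly protein family member, had the largest gap, with 9.87 in JURKAT, against 2.88 to 3.49 in the other NKL-positive lines and 2.96 to 3.67 in the NKL-negative lines. The next line, MOLT-4, was 6.20 lower, and all 10 other lines lay below their array medians. GAS2, a cytoskeletal protein of growth-arrested cells, was measured at 9.32 in JURKAT, against a lowest of 2.85, a median of 3.36 and a highest of 4.73 in the other lines, the last in HPB-ALL. ERICH5 was measured at 7.71 in JURKAT and at 2.57 to 3.76 in the others, and its second probe set gave 5.54 against 2.57 to 3.40. The separation of ERICH5 therefore held on both of its probe sets.

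SH3GL2, an endophilin of synaptic vesicle uptake, was measured at 7.46 in JURKAT and at 2.61 to 3.83 in the other lines. FCHO2, an early factor of clathrin-coated pits, was measured at 7.20 and at 2.86 to 3.67, while its second probe set stayed near background everywhere, with 3.16 in JURKAT and a highest of 2.88 in the others. TOM1L1, an endosomal adaptor of SRC family kinases, was measured at 7.25 in JURKAT and at 2.97 to 4.0 in the others. JURKAT stood alone in all 3 by the probe set used, and the second probe set of TOM1L1 kept JURKAT 1.77 above the next line. ARFGEF3, related to exchange factors of ARF proteins, was measured at 6.65 in JURKAT against 2.71 to 4.28, but 2 of its 4 probe sets did not place JURKAT above the others. LAMP3, a lysosomal membrane protein, was measured at 9.0 in JURKAT and at 2.88 to 6.61 in the others, with PEER next.

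FZD3, a receptor of WNT ligands, was measured at 9.16 in JURKAT, against 3.38 to 5.71 in the other NKL-positive lines and 5.47 to 6.32 in the NKL-negative lines. All 4 probe sets of FZD3 placed JURKAT above every other line, 2 of them by at least 2. DAAM2, a formin of the WNT pathway, was measured at 8.23 in JURKAT and at 4.15 to 5.85 in the others. SHISA2, which in frog embryos holds back FZD and FGF receptors in the endoplasmic reticulum, was measured at 11.10 in JURKAT, against a lowest of 3.83, a median of 6.82 and a highest of 8.67, in MOLT-16. Unlike most others, SHISA2 lay above the array median in 9 of the other lines and fell below it in MOLT-14 alone. FGF13, an intracellular relative of fibroblast growth factors, had 5.75 in JURKAT and 3.02 to 3.35 elsewhere. PRDM13, a transcription factor of the dorsal neural tube and retina, had 7.35 in JURKAT and 3.04 to 4.82 elsewhere.

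LPL, the lipoprotein lipase, was measured at 6.90 in JURKAT and at 3.21 to 4.12 in the other lines, and its second probe set gave 5.73 against 2.96 to 3.60. GPAT3, an acyltransferase of triglyceride synthesis, was measured at 7.08 in JURKAT and at 2.72 to 4.88 in the others, with LOUCY next. PLIN2, which coats lipid droplets, was measured at 3.82 in JURKAT, against a lowest of 6.0 in MOLT-14, a median of 9.84 and a highest of 11.84 in CCRF-CEM. JURKAT was therefore the only line without a PLIN2 value above its array median, though the other probe set of PLIN2 gave 4.49 in JURKAT and 3.71 to 6.64 in the others, without separation. The remaining higher genes were C9, a complement component, with 6.42 in JURKAT and 2.75 to 3.70 elsewhere, KIF26A, a kinesin family member, with 6.46 and 3.12 to 4.17, LOC100506405 with 6.62 and 3.26 to 4.36, FAM110C with 9.45 and 2.64 to 7.20, and RNF212, a factor of meiotic crossing over, with 8.34 and 3.73 to 6.17. A second probe set of RNF212 gave 4.39 in JURKAT and 3.31 to 4.59 in the others, without separation.

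**Figure D3:**
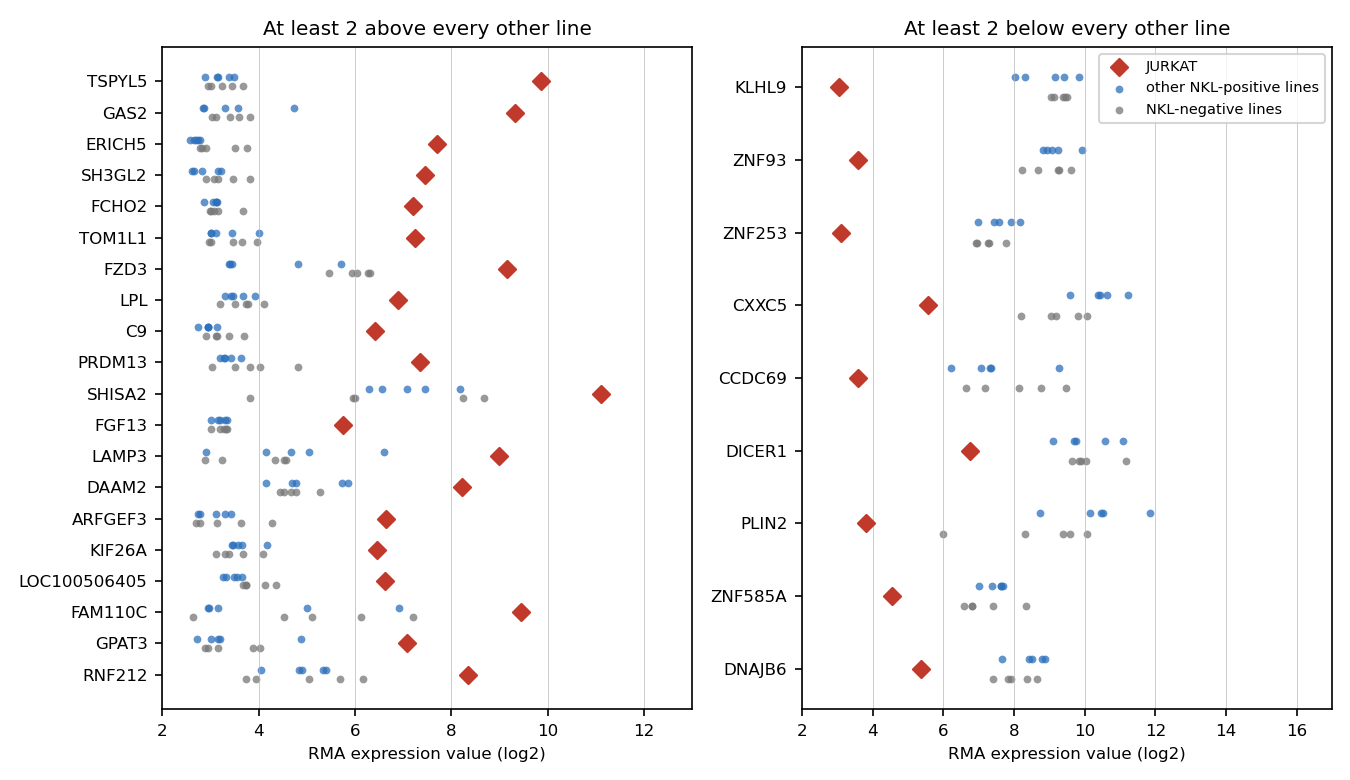
RMA log2 values (x-axis) of the 20 genes at least 2 above (left) and the 9 genes at least 2 below (right) every other line (y-axis), JURKAT as red diamonds, the other NKL-positive lines in blue and the NKL-negative lines in grey. TSPYL5 lies at 9.87 in JURKAT and at most at 3.67 elsewhere, KLHL9 at 3.06 in JURKAT and at least at 8.03 elsewhere.

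The 9 lower genes were measured above the array median in all 10 other lines, which the rule nearly requires. KLHL9, a substrate adaptor of a ubiquitin ligase, had the largest gap, with 3.06 in JURKAT, against 8.03 to 9.83 in the other NKL-positive lines and 9.06 to 9.49 in the NKL-negative lines. A second probe set of KLHL9 gave 2.96 in JURKAT and 5.10 to 8.63 in the others, another gave 3.06 against 3.91 to 6.41, and the fourth was at background in all lines. KLHL9 lies inside the interferon gene cluster of chromosome 9, and 6 measured genes further lies MTAP, the methionine salvage enzyme. MTAP was measured at 2.74 in JURKAT, but ALL-SIL, CCRF-CEM, CML-T1 and MOLT-14 lay between 2.92 and 3.12, while the other 5 lines lay between 6.35 and 8.66. Low MTAP values were therefore shared with 4 lines in which KLHL9 was measured between 8.30 and 9.49. PLIN2 lies 19 measured genes before KLHL9. The direct neighbours of PLIN2, HAUS6 and DENND4C, were at 9.84 and 8.91 in JURKAT, 0.475 and 0.06 above the medians of the other lines. RPS6, the gene after DENND4C, was at 13.91, 0.06 below the median. Between PLIN2 and KLHL9, FOCAD was lowest in JURKAT, with 6.60 against 6.96 to 9.40. HACD4 was at 7.58, against a median of 3.54 and a highest of 9.08. SH3GL2, a higher gene of the profile, lies 5 measured genes before PLIN2.

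Zinc finger genes of chromosome 19 made up 3 of the 9. Of the 19775 genes, 1320 were placed on chromosome 19 and 466 carry a ZNF symbol. ZNF93, a KRAB zinc finger gene known to repress LINE-1 elements, was measured at 3.60 in JURKAT, against a lowest of 8.22, a median of 9.18 and a highest of 9.92 in the others. ZNF253, its direct neighbour, was measured at 3.11 in JURKAT and at 6.92 to 8.18 in the others. ZNF585A was measured at 4.54 in JURKAT and at 6.60 to 8.35 in the others. Beyond the profile, ZNF585B, the neighbour of ZNF585A, was also lowest in JURKAT on 1 of 2 probe sets, with 3.60 against 4.97 to 8.04. The genes of this family are similar to each other, and some probe sets can bind several of them. One such probe set of ZNF93 gave 6.33 in JURKAT and 8.21 to 9.72 in the others, so that the size of these differences is uncertain. Among all 466 measured genes with a ZNF symbol, 67 (14.4%) lay at least 1 below the median of the other lines in JURKAT and 22 (4.72%) at least 1 above. The 466 include the 3 genes of the profile. Over all genes, 857 (4.33%) lay at least 1 below and 1280 (6.47%) at least 1 above. In the other 10 lines, 3.65% to 11.4% of the ZNF genes lay at least 1 below, so that JURKAT had the highest share. At 2 log2 units the share was 3.43% in JURKAT and 4.08% in SUP-T1, so that JURKAT no longer came first. Outside the profile, ZNF423, ZNF544 and ZNF542P differed most from the median, with 3.34, 4.28 and 2.83 in JURKAT. Each was also low elsewhere, ZNF423 with 3.34 in ALL-SIL, ZNF544 with 4.34 in CML-T1 and ZNF542P with 2.73 in ALL-SIL and 2.97 in SUP-T1. For ZNF544, 1 of 3 probe sets placed JURKAT above every other line, so that its difference depended on the probe set.

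The other lower genes were of several kinds. CXXC5, a CXXC zinc finger protein that binds unmethylated CG, was measured at 5.57 in JURKAT, against 9.58 to 11.22 in the other NKL-positive lines and 8.20 to 10.08 in the NKL-negative lines. Its 3 probe sets all passed the rule. STING1, the adaptor of cytosolic DNA sensing and the neighbour of CXXC5 on chromosome 5, was also lowest in JURKAT on both probe sets, with 5.40 against 6.17 to 8.86 on the one used. CCDC69 was measured at 3.60 in JURKAT and at 6.22 to 9.47 in the others, and its 2 probe sets passed. DICER1, the enzyme that cuts miRNA precursors, was measured at 6.75 in JURKAT, against a lowest of 9.11, a median of 9.88 and a highest of 11.18 in the others. A second probe set of DICER1 gave 6.08 against a lowest of 7.90, but another gave 8.84 in JURKAT and 8.43 to 10.50 in the others, and the remaining 3 were low in most lines. The call for DICER1 therefore depended on the probe set. DNAJB6, a co-chaperone, was measured at 5.37 in JURKAT and at 7.42 to 8.89 in the others by its only probe set.

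At the edge of the rule, GPAT3 and RNF212 lay 2.20 and 2.17 above the next line, while PCDH19 missed the rule with 1.94. ZNF585A and DNAJB6 lay 2.06 and 2.05 below the next line, while KANSL1L missed it with 1.94. Among the 8 higher genes with several probe sets, ERICH5 and LPL passed the rule on all of them, and among the 8 lower genes with several probe sets, CXXC5 and CCDC69 did. The next line was NKL-positive for 6 and NKL-negative for 14 of the higher genes, and NKL-positive for 3 and NKL-negative for 6 of the lower genes. The same count was not made over all genes, and some next lines were told from others only near background. For FGF13, MOLT-16 had 3.35 and ALL-SIL 3.34. These counts therefore do not place JURKAT with either group.

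The counts of list members that follow stand against 6.47% of all genes at least 1 above and 4.33% at least 1 below the median, and the list medians against 0.03. The regulators of T-ALL outside the NKL subclass differed in both directions. TAL1 was measured at 10.74 in JURKAT, against 8.92 in CCRF-CEM, 9.0 in MOLT-4, 7.82 in MOLT-16 and 5.23 in MOLT-14, while the remaining 6 lines lay between 2.71 and 3.79. JURKAT was highest on 3 of the 4 TAL1 probe sets, but the one with the highest mean over the other lines differed from the median by only 0.96, so that the size rests on the probe set. LMO2, a partner of TAL1 in stem cells, was measured at 2.96 in JURKAT and at 3.12 to 9.93 in the others, with a median of 7.43. LMO2 was thus near background in JURKAT, as it was in SUP-T1 with 3.12. RUNX3 was measured at 5.30 in JURKAT and at 5.43 to 10.20 in the others, while a second probe set of RUNX3 gave 5.60 against 4.71 to 10.38. ERG was measured at 3.55 against a median of 6.03, and ID3, an inhibitor of E proteins, at 10.31 against a median of 8.31, the highest line. RUNX2 was 3.46 above the median at one probe set, and the other 5 differed from it by 0.62 or less. Of 34 genes in the list, 8 lay at least 1 above and 6 at least 1 below the median, with a median difference of 0.39. Among 33 HOX cluster genes and cofactors, 9 lay at least 1 above and 0 below, led by HOXC10 with 6.99 in JURKAT against a median of 4.30, HOXB7 with 7.82 against 5.27 and HOXD13 with 7.06 against 3.82 to 6.53. LOUCY exceeded JURKAT for HOXC10 and HOXB7, and JURKAT was highest for HOXD13 on all 3 probe sets.

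Among 17 genes of the T-cell receptor complex and its coreceptors, 1 lay at least 1 above and 7 at least 1 below the median, against 6.47% and 4.33% of all genes. CD2, the adhesion partner of CD58, was measured at 10.89 in JURKAT, against 9.97 in HPB-ALL, 10.09 in MOLT-4, 10.12 in MOLT-16, while the remaining 7 lines lay between 4.13 and 6.62. CD28, the costimulatory receptor, was measured at 4.44 in JURKAT, with CML-T1 at 4.02, ALL-SIL at 5.75 and a median of 8.77, and all 3 of its probe sets lay below the median by at least 3.31. CD7 was measured at 7.09 in JURKAT and at 7.73 to 11.46 in the others, the lowest line on both probe sets. CD4 with 4.96 against a median of 7.35, CD8A with 4.87 against 6.88 and CD8B with 3.50 against 5.91 were low as well, within the range of the other lines. The 55 signal transducers of the receptor had a median difference of 0.02, with 7 at least 1 above and 5 at least 1 below. UBASH3B, a phosphatase that restrains receptor signals, was measured at 6.20 in JURKAT against a median of 9.51, and SYK and SKAP1, a kinase and an adaptor, at 6.59 and 7.98 against medians of 4.04 and 5.64. All 3 lay within the range of the other lines, and for UBASH3B the difference from the median was −3.31, but only −0.99 without the 3 arrays with low poly-A controls.

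Markers of maturation stages moved in different directions. Of 22 markers of double positive thymocytes, 8 lay at least 1 above and 4 at least 1 below the median, with a median difference of 0.74, the highest of the 27 lists. CD1D, which presents lipids, was measured at 9.36 in JURKAT and at 2.86 to 8.25 in the others, the highest line. ELOVL4 with 10.93 against a median of 7.27, the terminal transferase DNTT with 10.91 against 7.91 and CD1B with 9.13 against 6.28 were each exceeded by at least 1 other line. Thus, CD1D alone among these 4 was highest in JURKAT. The 4 were named because they lay farthest from the median, and all lay above it. At 2 log2 units, 5 markers of the list lay above and 3 below. CD4, CD8A and CD8B, which mark the double positive stage, were low in JURKAT, as given above, so that the stage is not settled by these markers. Of 23 early progenitor markers, 8 lay at least 1 below and 4 at least 1 above. CD44 was measured at 3.55 in JURKAT and 3.34 in SUP-T1, against 7.12 to 11.37 in the other 9 lines, and LGALS1 and IGLL1 at 4.54 and 5.37 in JURKAT against medians of 8.88 and 8.45. SPINK2 and KIT were on the other side, with 8.56 and 7.44 in JURKAT against medians of 5.53 and 4.72. Of 18 mature T-cell markers, 8 lay at least 1 below and 2 at least 1 above, with a median difference of −0.78, the lowest of the lists. CCR7, a homing receptor, with 3.66 against 3.91 to 9.47, and IL2RB, with 4.25 against 4.28 to 9.09, were near background in JURKAT, while GIMAP4, a lymphocyte GTPase, stood at 6.62 against a median of 3.56 and KLF2, a factor of T-cell quiescence, at 9.34 against 7.14.

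**Figure D4:**
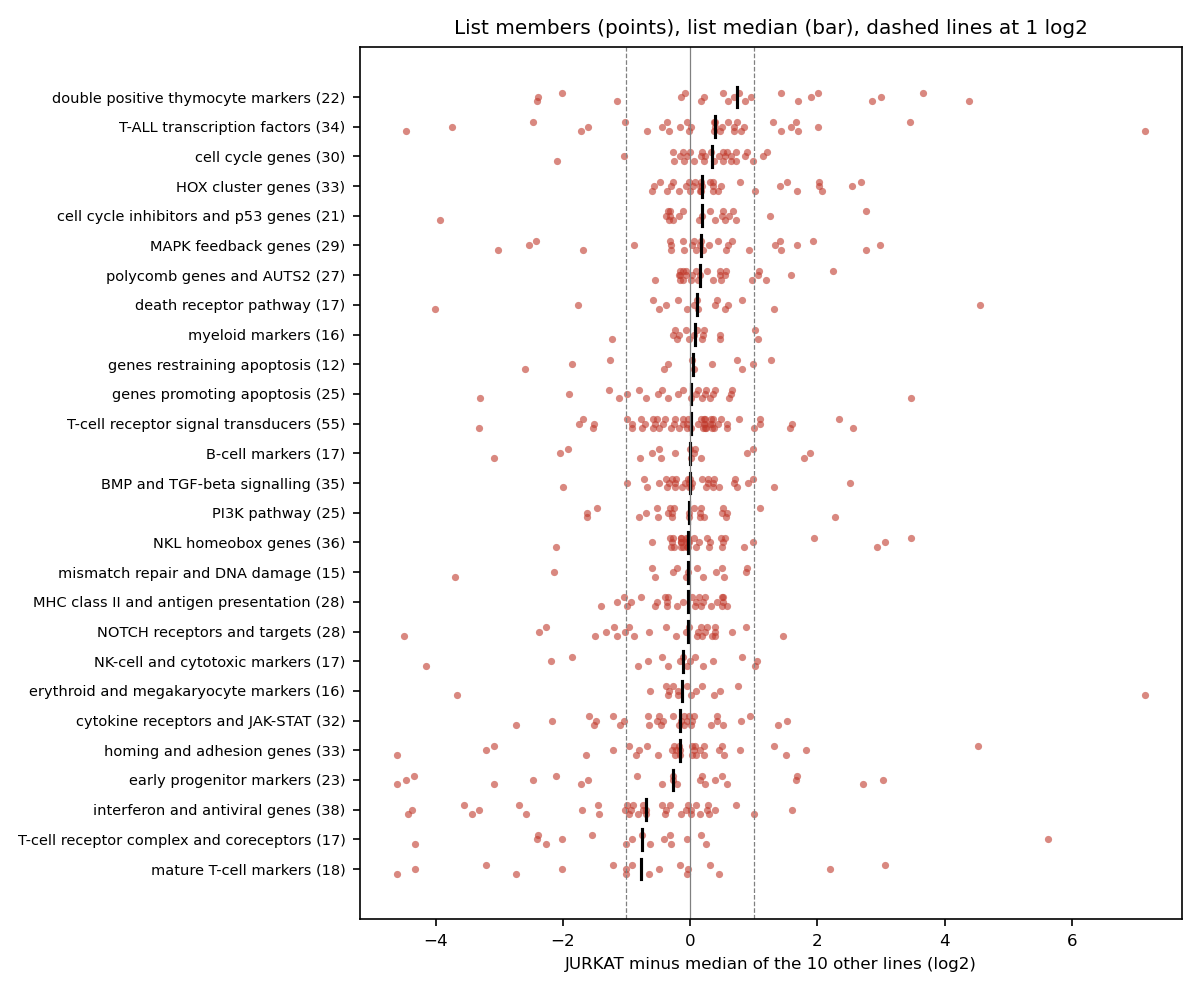
Difference between JURKAT and the median of the other 10 lines (x-axis, log2) for each measured member of 27 gene lists (points, with the number of members beside the list name), with the list median as a black bar. Double positive thymocyte markers have the highest median (0.74) and mature T-cell markers the lowest (−0.78).

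Of 38 interferon and antiviral genes, 11 lay at least 1 below and 2 at least 1 above the median, against 4.33% and 6.47% of all genes. At 2 log2 units, 7 lay below and 0 above, against 1.09% and 1.99% of all genes. The median difference was −0.69, against 0.03 over all genes. IFITM1, a membrane protein that blocks virus entry, was measured at 7.92 in JURKAT and 7.20 in SUP-T1, against 9.91 in MOLT-4 and 11.54 to 13.42 in the other 8 lines. MX2, a dynamin-like antiviral GTPase, was measured at 4.96 in JURKAT and at 6.38 to 9.56 in the others, the lowest line. PYCARD, the inflammasome adaptor, was measured at 4.03 in JURKAT, 3.82 in MOLT-4 and 4.03 in SUP-T1, against 6.98 to 8.86 in the other 8 lines. Low values were thus shared with SUP-T1 for IFITM1 and PYCARD, but not for MX2. TRIM22 was measured at 5.34 in JURKAT, against 2.79 in SUP-T1, 5.35 in HPB-ALL and a median of 8.89, and BST2, known as tetherin, at 5.44 against 4.03 in SUP-T1 and a median of 8.02. On the other side, XAF1 was highest in JURKAT, with 8.46 against 3.28 to 8.09, while the transcription factors IRF3 and IRF9 stood at 8.66 and 6.96 in JURKAT and had medians of 8.73 and 6.95 in the others.

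Single members stood out in further lists. In the death receptor pathway, the receptor TNFRSF10B was measured at 9.39 in JURKAT and at 2.83 to 9.24 in the others, with CML-T1 next, and its ligand TNFSF10 at 3.92 against a median of 7.94. JURKAT was highest in TNFRSF10B on 3 of 4 probe sets, while the fourth gave 4.49 against a median of 5.56. CFLAR, an inhibitor of caspase 8, was measured at 5.47 against 5.27 to 9.10, and all 14 of its probe sets lay below the median, while CASP4 was measured at 3.77 against a median of 7.07 and BNIP3 at 9.73 against 6.26. In the mismatch repair list, MSH6 was measured at 6.96 in JURKAT, against 3.06 in HPB-ALL and 9.92 to 11.08 in the other 9 lines. A second probe set of MSH6 gave 4.49 in JURKAT against a median of 9.54, and the remaining 2 were low in all lines. MSH6 was therefore low in both JURKAT and HPB-ALL. In the PI3K pathway, FOXO1 was highest in JURKAT with 6.81 against 3.45 to 6.54, and INPP5D, a phosphatase that acts on the lipid product of PI3K, was lowest with 6.98 against 7.33 to 9.31, as was PIK3R1 with 7.41 against 8.14 to 10.40. NF1, a RAS inhibitor, was measured at 6.65 in JURKAT and at 2.92 to 5.68 in the others, and SPRY1, a feedback inhibitor, at 4.91 against a median of 7.92.

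Further lists held low members. The NOTCH target HES1 was measured at 3.92 in JURKAT against a median of 8.42, with MOLT-16 at 3.0, and NOTCH3 at 5.37 against 7.75. Of 28 genes in that list, 8 lay at least 1 below and 1 at least 1 above. AUTS2, a partner of polycomb complexes, was measured at 9.52 in JURKAT and exceeded by LOUCY with 10.67 and HPB-ALL with 9.68, with a median of 7.28, and ACVR1, a BMP type I receptor, was highest in JURKAT with 7.52 against 3.53 to 6.76. MCM7, a subunit of the replicative helicase, was the only one of 30 cell cycle genes at least 2 below, with 9.0 in JURKAT against 10.07 to 11.61, the lowest line on both probe sets. The adhesion genes CD9 and ITGAL stood at 8.87 and 5.92 in JURKAT against medians of 4.35 and 9.0, and the cytotoxic granule gene NKG7 at 4.08 against 8.24. MHC class II and antigen presentation genes (28) had 0 members at least 1 above and 3 at least 1 below, with PSMB8 farthest, at 8.73 against 10.13.

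JURKAT was then placed among the genes that separate the other 10 lines by their NKL label. The groups of 5 did not overlap in 75 genes that were higher in all NKL-positive lines and in 104 genes that were lower. JURKAT was nearer to the NKL-positive mean in 35 of the 75 (46.7%) and in 41 of the 104 (39.4%), against 51.0% of all 19775 genes. It lay within the range of the NKL-positive lines in 24 and 31 genes and within that of the NKL-negative lines in 33 and 47. When each other line was left out in the same way, with 4 against 5 lines choosing the genes, it was nearer to its own group in 38.1% (HPB-ALL) to 64.6% (PEER) of 286 to 451 genes, and JURKAT with 76 of 179 (42.5%) lay above 2 of the 10. Over other settings of the processing, the share for lower genes ranged from 22.9% to 74.8%, and that for higher genes was 55.3% without MOLT-4 and 58.0% without SUP-T1. The direction of both shares against 51.0% is therefore not settled.

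Where the groups differed by at least 2, JURKAT was nearer to the NKL-negative mean in 2 of 3 higher and in 17 of 21 lower genes. Of all 19775 genes, 51.0% were nearer to the NKL-positive mean. The counts at this threshold were not repeated without single lines or under other processing, so they do not settle the direction either. NETO2, an auxiliary subunit of kainate receptors, was measured at 10.40 in JURKAT, against 2.96 to 3.77 in the other NKL-positive lines and 8.67 to 9.77 in the NKL-negative lines. LRATD2 was measured at 9.45 in JURKAT, against 2.88 to 4.31 and 6.10 to 9.16, though a second probe set of LRATD2 gave a difference from the median of all others of only 0.72. CHN1, a GTPase-activating protein of RAC, was measured at 9.05 in JURKAT, against 4.63 to 4.86 in the other NKL-positive lines and 7.04 to 9.33 in the NKL-negative lines. In all 3 genes, JURKAT lay above every other NKL-positive line. MBNL2 with 9.28, BEND4 with 8.37 and TTC14 with 9.54 in JURKAT lay above all other NKL-positive lines, which reached 7.58, 5.84 and 7.67, while ANXA5 with 7.88 lay between the group means of 4.87 and 9.55. Among the genes higher in the NKL-positive lines, RNF135 was measured at 3.25 in JURKAT, against 8.68 to 10.04 in the other NKL-positive lines and 3.26 to 6.68 in the NKL-negative lines, and SERPINB1 at 3.60, against 8.33 to 9.53 and 3.40 to 7.90. WWC3 with 4.96, NCR3 with 4.25 and NECTIN1 with 6.06 in JURKAT were also nearer to the NKL-negative means, which were 6.87, 5.28 and 5.70. Their groups differed by slightly less than 2, namely by 1.94, 1.88 and 1.86. Exceptions included SMAD1, a BMP signal transducer, with 8.15 in JURKAT against 8.02 to 8.89 and 3.79 to 7.54, and FN1, fibronectin, with 4.59 against 3.65 to 4.64 and 5.68 to 8.47. In both, JURKAT lay within the range of the NKL-positive lines.

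**Figure D5:**
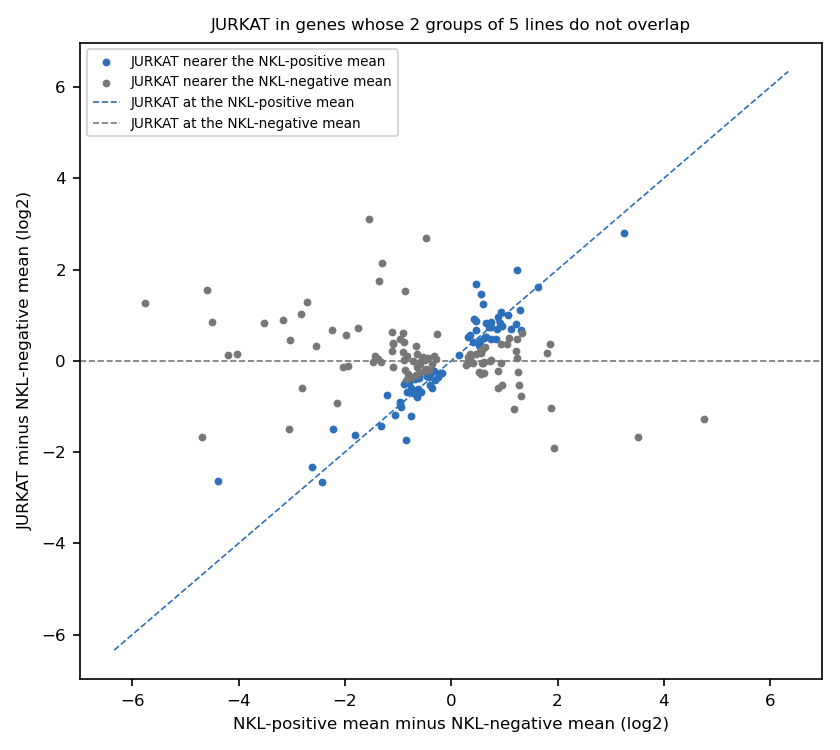
JURKAT minus the mean of the 5 NKL-negative lines (y-axis, log2) against the mean of the other 5 NKL-positive lines minus that of the NKL-negative lines (x-axis, log2) for the 179 genes whose groups do not overlap, blue where JURKAT is nearer to the NKL-positive mean and grey where it is nearer to the NKL-negative mean. Of the 21 lower genes with a group difference of at least 2, 17 lie nearer to the NKL-negative mean, while 51.0% of all 19775 genes lie nearer to the NKL-positive mean.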

How the data were processed

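Total RNA of 11 T-ALL cell lines was labelled with biotin and hybridized to HG U133 Plus 2.0 arrays, 1 per line. The authors processed the arrays by RMA and deposited log2 values, which were used without further scaling and ran from 2.24 to 14.57. The number of arrays limits the precision. Of 54613 probe sets, after removal of 62 controls, 41091 carry 1 gene symbol, 1801 several and 11721 none, and 41042 of the 41091 matched RefSeq. For each gene the probe set with the highest mean of 11 lines was taken. One NKL-subclass gene is not reported here. Groups came from the NKL label. JURKAT was compared with the median and range of the other 10 lines, with pandas 2.3.3 and numpy 2.4.6 and no test. Named genes were NKL genes at least 2 from the median, all 29 profile genes, the list members farthest from the median, the 5 genes per direction that separate the NKL groups most where JURKAT is nearer the NKL-negative mean, and a few genes added after their values were seen, as profile neighbours, family members or exceptions. Gene members and the 27 lists were chosen with earlier results of these data known. Alternatives covered probe set choice, floor, filter, centring, quantile normalization, gap, arrays and lines. The procedure was tested on simulated data.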

Additional observations from a re-analysis of the deposited data

Results flagged for a closer look

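Within the groups of 5 other lines, a line counted as far from the rest where its gap to the nearest line exceeded 0.71 of the range of the group (Dixon's ratio). Of 80 groups examined 7 were affected, and chance flags about 1 in 20 groups, or 4 of 80. SUP-T1 had 54 genes at least 2 below every other line, against 8 to 14 in the other NKL-negative lines. HPB-ALL had a mean of 3.07 for the poly-A controls, against 7.88 to 9.59 in ALL-SIL, CCRF-CEM, LOUCY and PEER. For the higher genes of JURKAT, FCHO2 was measured at 2.86 in CCRF-CEM and 3.06 to 3.14 in the other NKL-positive lines, and at 3.67 in SUP-T1 and 3.0 to 3.15 in the other NKL-negative lines, all near background. GPAT3 was measured at 4.88 in LOUCY and 2.72 to 3.20 in the other 4 NKL-positive lines. DICER1 was measured at 11.18 in SUP-T1 and 9.64 to 10.05 in the other NKL-negative lines, so that the distance of JURKAT from SUP-T1 was the largest. NKX2-2 was measured at 4.54 in SUP-T1 and 2.68 to 3.15 in the other NKL-negative lines, with JURKAT at 5.99.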

How the results depend on the processing

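With a gap of 1, JURKAT had 107 higher and 47 lower genes of its own and 1280 genes above and 857 below the median, and with a gap of 3 it had 6, 3, 152 and 97. With only genes above the median of mean values, 1 higher gene of its own (SHISA2), 137 genes above the median and a placement of 22.9% for lower genes remained, since genes low in most lines were dropped. With only the lines that have poly-A controls, 45 higher and 16 lower genes and a placement of 51.9% for lower genes were found. The placement for lower genes was 74.8% with a floor at the 25th percentile and 29.1% with median centring, and the cause was not tested. Counted as lying within the range of the NKL-positive lines, the placements were 32.0% for higher and 29.8% for lower genes. Where every probe set of a gene had to pass, which was chosen after seeing the data, 3 lower genes of its own, 196 genes above and 99 below the median were left. Without 1 other line at a time, the counts ran from 20 to 27 higher and from 9 to 14 lower genes of its own, from 369 to 415 genes above and from 211 to 251 below the median, and the placements from 42.1% to 58.0% for higher and from 37.9% to 53.7% for lower genes. Leaving out lines can only lengthen the profile. All 20 higher and 9 lower genes were kept with the probe set of highest mean over the other 10 lines. With the mean over probe sets 16 and 6 were kept, without ARFGEF3, FCHO2, FZD3, RNF212, DICER1, PLIN2 and ZNF585A. For 135 named genes, 2250 differences from the median were recomputed. Of these, 34 moved by more than the SD of the other lines, 23 of them with the mean over probe sets. A change of sign was looked for only where the difference as reported was at least 2 in size, and 0 were found. For profile genes, leaving out lines cannot change the sign. No paired analysis was possible because no line was measured more than once. Low signals, around array background, have no order.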

Other observations

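In some genes JURKAT lay at least 2 above or below 9 of the other lines, but not the remaining 1. Counted by that remaining line, such genes numbered 12 for SUP-T1, 9 each for CML-T1 and MOLT-14, 8 for MOLT-16 and 1 to 6 for the other lines. The remaining line did not have to stand apart from the 9 itself. For PCDH19, JURKAT had 5.83 and MOLT-16 3.89, with a highest of 3.82 in the 9 lines. With SUP-T1, JURKAT shared low values of DOCK8, an exchange factor of CDC42 in lymphocyte migration, with 2.83 in JURKAT and 2.79 in SUP-T1, against 9.03 to 10.62 in the other 9 lines. APOBEC3G, an antiviral cytidine deaminase, was measured at 4.87 in JURKAT and 2.74 in SUP-T1, against 7.10 to 11.32. EPHX2, an epoxide hydrolase, was measured at 9.38 in JURKAT and 8.04 in SUP-T1, against 3.49 to 6.98. With MOLT-14, JURKAT shared high values of MPPED2, with 7.91 in JURKAT and 7.81 in MOLT-14, against 2.59 to 3.64, and of SOX11, a developmental transcription factor, with 6.37 in JURKAT and 8.60 in MOLT-14, against 2.92 to 4.28. With MOLT-4, the homeobox gene SIX6 was measured at 8.80 in JURKAT and 9.31 in MOLT-4, against 2.81 to 4.09. With PEER, TNNT1, a troponin of slow skeletal muscle, was measured at 8.77 in JURKAT and 8.94 in PEER, against 3.48 to 6.53, and GSTM3, a glutathione transferase, at 10.76 and 10.42, against 3.23 to 8.54. With MOLT-16, ARMCX5 was measured at 2.64 in JURKAT and 2.83 in MOLT-16, against 5.97 to 7.99. These genes were chosen after their values were seen.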
